A study of Mus musculus with 9 samples.

Results

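The replication-dependent histone cluster genes are the 69 genes, of 48640 in the deposited table, whose names begin with Hist1h, Hist2h, Hist3h or Hist4h and carry no pseudogene suffix. All 69 were kept, whatever their level. By histone class they comprise 6 linker histone H1 genes, 20 H2A genes, 18 H2B genes, 12 H3 genes and 13 H4 genes. By name 56 belong to Hist1 on chromosome 13, 10 to Hist2 on chromosome 3, 2 to Hist3 on chromosome 11, and 1, Hist4h4, lies on chromosome 6. Of the 56, 55 lie together between 21715763 and 23934851 (mm10), and Hist1h2al lies apart, at 51202688 to 51203065.

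Their RNA was measured in 9 mouse libraries, 3 in each of 3 groups, from embryonic fibroblast cultures taken through reprogramming for 75 days with 1 µg/mL doxycycline. Cultures that received the empty vector gave the control induced pluripotent stem cells (iPSCs), which were positive for the Oct4:GFP reporter. The YAP-culture iPSCs arose where a lentiviral vector for YAP, the co-activator at the end of the Hippo pathway, had been delivered. They were also Oct4:GFP positive, and while their titles state that YAP overexpression had been lost, their genotype label keeps the YAPmCherry mark. YAP colonies were the YAPmCherry-positive, non-pluripotent colonies of such cultures, which stayed on doxycycline. All 3 kinds of cells were grown on a feeder layer in embryonic stem cell medium, so each library can hold RNA of feeder fibroblasts. The promoter of the YAP vector and the origin of the replicates are not given in the labels, and the spread on which the p-values rest may be technical.

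These genes supply the bulk of new histones during DNA replication, and in most cycling cells their RNA appears in S phase and is destroyed at its end. Their messages are known as the animal mRNAs that normally carry no poly(A) tail. They end just after a short stem-loop, which the stem-loop binding protein SLBP holds while the U7 small nuclear ribonucleoprotein guides the cut. Some of the genes also have an ordinary poly(A) signal further downstream, and polyadenylated forms made there are known from cells that leave the cycle or differentiate. The libraries were made with an mRNA kit that selects poly(A) RNA, so the values below show the polyadenylated part of histone RNA and whatever tail-less RNA was carried along, not total histone RNA.

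The ends of the genes on which the results turn show the alternative. In the GENCODE M21 annotation of mm10, 67 of the 69 genes had a transcript, and 41 of these held a stem-loop, searched as the arms GGCTCT and AGAGCC around the loop TTTN with up to 2 mismatches, 31 of them with none. The H4 stem-loops differ in a base pair of the stem (GGCCCT and AGGGCC in place of GGCTCT and AGAGCC). A poly(A) signal, AATAAA or ATTAAA, lay within the last 50 bases of an annotated or deposited gene end in 18 of the 67, and 12 of those 18 also had a stem-loop. Some annotated transcripts are short, such as 381 bases for Hist1h2bl, Hist1h2bn and Hist2h2bb and 312 bases for Hist1h4k. A stem-loop or signal beyond an annotated end would be missed, so these counts describe the annotation. One in a part spliced out of the annotated transcripts would be missed too. The only transcript of Hist1h2bc, for example, has 2 exons and 1156 bases, in a gene that spans 8290 bases. Capitals mark the 6-base arms of the stem or the signal, in sequence read from the mm10 genome in the direction of transcription.
Hist1h2bg stem-loop, chr13:23571838-23571863, plus strand: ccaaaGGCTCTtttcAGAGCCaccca
Hist1h4d stem-loop, chr13:23581945-23581970, plus strand: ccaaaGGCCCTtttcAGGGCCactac
Hist1h1c stem-loop, chr13:23739507-23739532, plus strand: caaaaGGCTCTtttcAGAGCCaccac
Hist1h1c poly(A) signal, chr13:23740330-23740359, plus strand: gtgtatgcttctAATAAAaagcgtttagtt
Hist1h4i stem-loop, chr13:22040961-22040986, minus strand: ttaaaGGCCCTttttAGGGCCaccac
Hist1h4i poly(A) signal, chr13:22040639-22040668, minus strand: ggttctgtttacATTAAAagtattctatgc
Hist1h2bc poly(A) signal, chr13:23692450-23692479, plus strand: tgatgtatatatAATAAAtgtcatgtaaag
Hist2h2be poly(A) signal, chr3:96223705-96223734, plus strand: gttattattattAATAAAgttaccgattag
Hist3h2a stem-loop, chr11:58955167-58955192, plus strand: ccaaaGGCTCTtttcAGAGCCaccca
Hist3h2a poly(A) signal, chr11:58956785-58956814, plus strand: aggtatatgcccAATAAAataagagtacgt
Hist1h2bg and Hist1h4d, which were highest in the control iPSCs, had a stem-loop and no signal at a listed end. Hist1h1c, Hist1h4i and Hist3h2a, which were highest in the YAP colonies, had both, while no stem-loop was found in the annotated transcripts of Hist1h2bc and Hist2h2be. Of the remaining genes with both, Hist1h2be, Hist3h2ba and Hist2h4 also had their highest mean in the colonies. Hist1h2bp, Hist1h4h, Hist1h2ae, Hist1h1t and Hist4h4 had it in the control iPSCs, and Hist2h3c1 in the YAP-culture iPSCs.

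Motifs known from histone promoters were common in these genes. RefSeq (GRCm38.p6) gave a 300-base window, from 250 bases before to 50 bases after the start, for 62 of the 69 genes. Searched on both strands, TATAAA was found in 35 of the 62 (56.5%) against 13.6% of all 32851 RefSeq promoters, CCAAT in 53 (85.5%) against 37.4%, and the octamer ATTTGCAT in 14 (22.6%) against 1.74%. The octamer was found in 7 of 18 H2A and 7 of 16 H2B promoters and in no H1, H3 or H4 promoter, and CCAAT in every H1, H2A, H2B and H3 promoter with an entry but in 3 of 12 H4 promoters. H2A and H2B genes often share a divergent promoter, so the same letters can be counted for both. The promoters of the 2 genes that passed the test below are shown, with the 3 motifs in capitals (CCAAT and ATTTGCAT read as ATTGG and ATGCAAAT on the other strand).
Hist1h2bg promoter, chr13:23571150-23571449, plus strand: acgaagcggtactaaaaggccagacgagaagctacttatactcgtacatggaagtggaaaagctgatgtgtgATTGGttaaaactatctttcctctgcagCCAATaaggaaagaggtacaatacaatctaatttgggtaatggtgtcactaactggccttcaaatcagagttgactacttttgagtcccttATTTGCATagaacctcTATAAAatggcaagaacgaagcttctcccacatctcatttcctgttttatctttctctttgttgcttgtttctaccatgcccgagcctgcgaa
Hist1h1c promoter, chr13:23738557-23738856, plus strand: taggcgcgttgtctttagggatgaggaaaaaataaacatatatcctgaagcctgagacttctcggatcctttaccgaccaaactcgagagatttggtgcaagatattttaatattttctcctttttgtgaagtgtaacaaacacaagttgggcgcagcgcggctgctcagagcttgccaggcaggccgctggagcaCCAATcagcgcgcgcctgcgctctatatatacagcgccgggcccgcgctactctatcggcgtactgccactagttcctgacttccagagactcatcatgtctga
Hist1h2bg, the H2B gene that was lower in the colonies than in the control iPSCs, has all 3 motifs, and Hist1h1c, the H1 gene that was higher in them than in the YAP-culture iPSCs, has CCAAT alone.

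Polyadenylated histone RNA was scarce. The values are FPKM, fragments per kilobase of gene model scaled to a library's mapped fragments, and the read depth behind them is unknown. The highest value of any of the 69 genes in any library was 5.61 FPKM, for Hist1h2bg in control replicate 3. The median gene had a mean of 0.271 FPKM over the 9 libraries, against 1.13 FPKM over all rows above 0 in some library. Of the 69 genes, 66 were above 0 somewhere, 10 were above 0 in all 9 libraries, and Hist1h2aa, Hist2h2ab and Hist2h2aa1 were listed at 0 throughout. Only 5 genes reached the mean of 1 FPKM that the main test required, namely Hist1h2bc, Hist1h1c, Hist1h4i, Hist1h2bg and Hist1h4d, and Hist1h2bg and Hist1h4d did so through the control iPSCs alone. The other 64 are described by their values and by a fit without that minimum. Many members are nearly identical in coding sequence, so reads may have been shared between copies, and single members of a class are uncertain.

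Summed over the 69 genes, the control iPSCs were at 44.7, 28.3 and 87.3 FPKM in replicates 1 to 3. The YAP-culture iPSCs were at 16.1, 8.44 and 22.4 FPKM, and the YAP colonies at 20.7, 24.5 and 29.3 FPKM. All 3 control libraries were above all YAP-culture iPSC libraries, while the colonies overlapped both iPSC groups. The group means were 53.4 ± 30.4, 15.6 ± 6.98 and 24.8 ± 4.31 FPKM (SD, n = 3). As a log2 ratio of the means, the YAP-culture iPSCs were at -1.77 and the colonies at -1.11 relative to the control iPSCs, and the colonies at 0.67 relative to the YAP-culture iPSCs. In these bulk samples, fewer cells of a type and less RNA per cell cannot be told apart.

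Control replicate 3 stood apart. It held the highest value of all 9 libraries for 44 of the 69 genes. Its Rn18s-rs5 row, a ribosomal RNA without a poly(A) tail, was at 17634 FPKM, against 440 to 2810 FPKM in the other 8 libraries. Its small nuclear RNA rows, also tail-less, summed to 18496 FPKM against 178 to 1680 FPKM. Without this library the control mean of the histone sum was 36.5 FPKM, and the log2 ratios to it were -1.22 for the YAP-culture iPSCs and -0.56 for the colonies. Between the other 2 control libraries the order was the reverse, with Rn18s-rs5 at 1263 FPKM in replicate 1 and 2810 FPKM in replicate 2, beside histone sums of 44.7 and 28.3 FPKM. The part of carried-over tail-less RNA in the histone values was not tested. At the other end, YAP-culture replicate 2 held the lowest value of its group for 25 of the 52 genes above 0 there, and its Rn18s-rs5 value of 440 FPKM was also the lowest of all. Its small nuclear RNA sum, 724 FPKM, was above those of YAP-culture replicate 3 (533 FPKM) and colony replicates 1 and 3 (178 and 321 FPKM). Its sum of small nucleolar, small Cajal body, miscellaneous RNA and ribozyme rows, 2104 FPKM, was above all libraries but control replicate 3 (8041 FPKM).

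**Figure D1:**
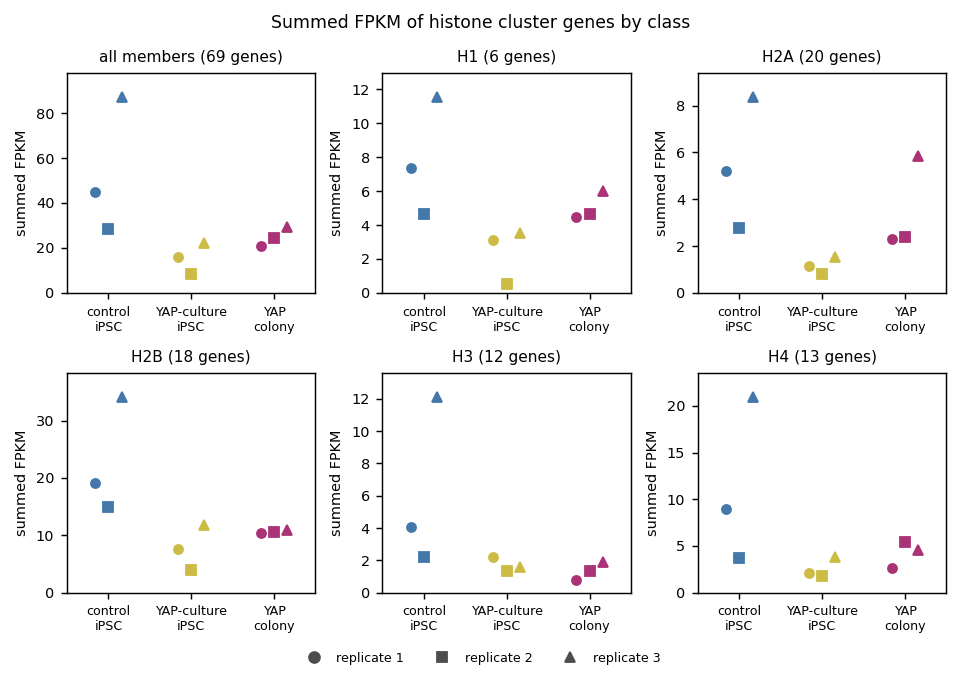
Summed FPKM of the 69 histone cluster genes and of each class (vertical axes, linear from 0) by group, with 1 point per library and a marker shape for each replicate. Control replicate 3 is the highest point in every panel, and the colonies lie between 20.7 and 29.3 FPKM in the panel of all genes.

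The number of histone genes above 0 was also highest in the control iPSCs. In the control iPSCs 61, 61 and 62 of the 69 genes were above 0 in replicates 1 to 3. In the YAP-culture iPSCs 34, 25 and 40 were, and in the colonies 29, 44 and 48. The control libraries did not overlap with the others, while the YAP-culture iPSCs and the colonies overlapped each other. Of all 48640 rows of the table, 21385 to 21556 were above 0 in the control libraries. In the YAP-culture iPSCs 21587, 19006 and 20803 rows were, in replicates 1 to 3, and in the colonies 19320 to 19661. Over all rows, too, the colonies were thus below the control iPSCs, while the YAP-culture iPSCs overlapped the control iPSCs. An exact 0 in such values can be a failed estimate rather than a lack of reads.

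**Figure D2:**
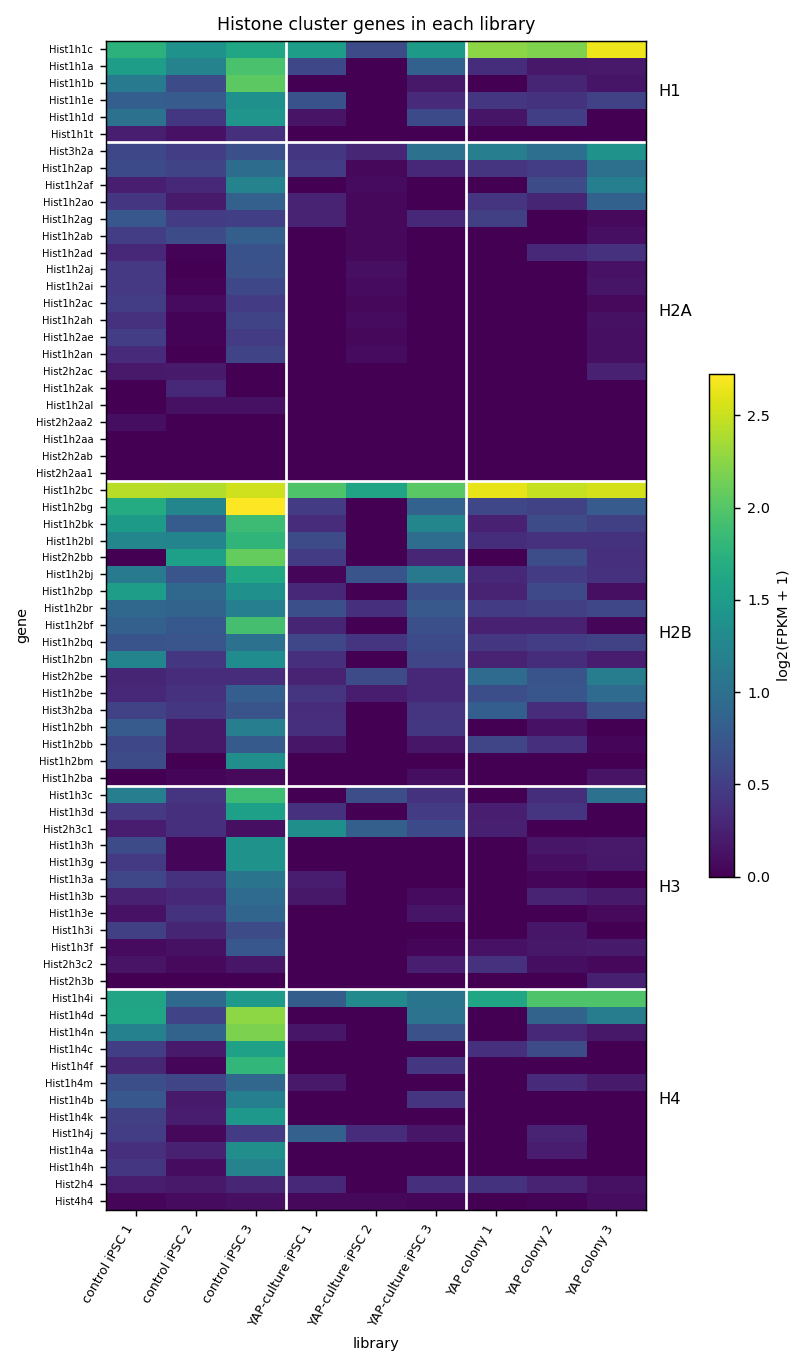
Heat map of log2(FPKM + 1) for the 69 genes (vertical axis, by class and then by mean) in the 9 libraries (horizontal axis). The 3 control columns on the left hold the most genes above 0, and Hist1h1c, Hist1h2bc, Hist1h4i, Hist2h2be and Hist3h2a are brightest, or among the brightest, in the colony columns on the right.

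The linker histone gene with the most RNA was higher in the colonies, and others were higher in the control iPSCs or did not differ in the test. Hist1h1c (chromosome 13, 23738808 to 23740367), which encodes the H1.2 linker histone, was at 2.36, 1.63 and 2.05 FPKM in the control iPSCs. It was at 1.89, 0.544 and 1.81 FPKM in the YAP-culture iPSCs, and at 3.76, 3.60 and 5.29 FPKM in the colonies. All 3 colony libraries were above all 6 iPSC libraries, which overlapped each other. Hist1h1c rose in the colonies over the YAP-culture iPSCs, from 1.41 ± 0.755 to 4.21 ± 0.936 FPKM (SD, n = 3), with a log2 fold change of 1.15 ± 0.25 (SE) on the log2(FPKM + 1) scale and an adjusted p of 0.00383 in limma. Without YAP-culture replicate 2 the log2 fold change was 0.86 with an adjusted p of 0.00376 in limma, which is under the required change of 1. Against the control iPSCs its log2 fold change was 0.79 with an adjusted p of 0.0240 in limma, which is also under that size.

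Hist1h1a, which encodes H1.1, went the other way. It was at 1.87, 1.32 and 2.84 FPKM in the control iPSCs, at 0.505, 0 and 0.799 FPKM in the YAP-culture iPSCs, and at 0.284, 0.129 and 0.139 FPKM in the colonies. All control libraries were above all others, and the lower groups overlapped. In the fit without a minimum level its log2 fold change in the colonies against the control iPSCs was -1.32 (adjusted p = 0.00326 in limma). Hist1h1b, which encodes H1.5, was at 1.19, 0.542 and 3.12 FPKM in the control iPSCs and at no more than 0.212 FPKM in the other 6 libraries, again with no overlap. The H1 class summed to 7.38, 4.66 and 11.6 FPKM in the control iPSCs, 3.11, 0.544 and 3.52 FPKM in the YAP-culture iPSCs, and 4.5, 4.67 and 6 FPKM in the colonies. The YAP-culture iPSCs were below both other groups, which overlapped. Hist1h1d and Hist1h1e, which encode H1.3 and H1.4, reached 1.69 and 1.58 FPKM in control replicate 3, but their changes in the colonies did not pass in the fit without a minimum level (adjusted p = 0.0607 and 0.0736 in limma). Hist1h1d overlapped, at 0.361 FPKM in control replicate 2 and 0.423 FPKM in colony replicate 2. Hist1h1t, the linker histone of spermatocytes, was at 0.175, 0.0927 and 0.3 FPKM in the control iPSCs and listed at 0 in the other 6 libraries.

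**Figure D3:**
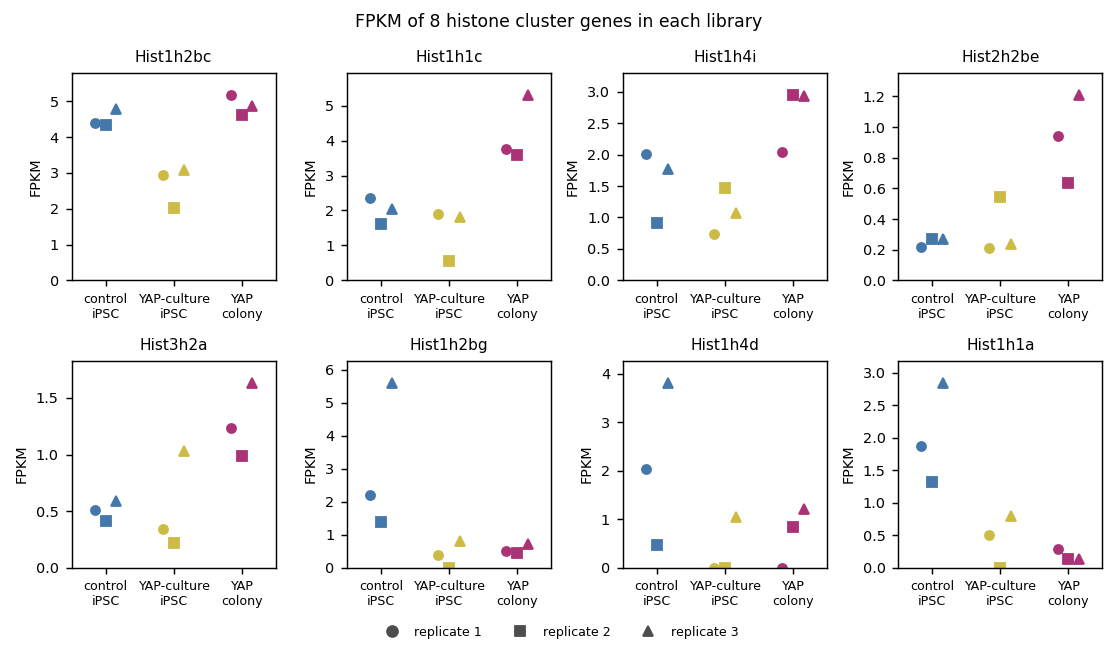
FPKM (vertical axes, linear from 0) of 8 histone cluster genes by group, with 1 point per library and a marker shape for each replicate. For Hist1h1c, Hist1h4i, Hist2h2be and Hist3h2a the 3 colony points lie above the 3 control points, and for Hist1h2bg and Hist1h1a below them.

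The H2A genes were mostly near 0. The class summed to 5.22, 2.78 and 8.38 FPKM in the control iPSCs, to 1.13, 0.812 and 1.52 FPKM in the YAP-culture iPSCs, and to 2.32, 2.38 and 5.84 FPKM in the colonies. The YAP-culture iPSCs were below both other groups without overlap. The highest H2A gene was Hist3h2a (chromosome 11, 58954685 to 58956830), at 0.507, 0.408 and 0.591 FPKM in the control iPSCs, 0.345, 0.221 and 1.03 FPKM in the YAP-culture iPSCs, and 1.24, 0.988 and 1.63 FPKM in the colonies. The colonies were above the control iPSCs and overlapped the YAP-culture iPSCs through replicate 3 of the latter. In the fit without a minimum level its log2 fold change was 0.60 in the colonies against each iPSC group, with an adjusted p of 0.0418 in limma in both comparisons, and 0.64 with an adjusted p of 0.0750 against the control iPSCs without control replicate 3.

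Hist1h2ab had the opposite pattern, at 0.408, 0.535 and 0.768 FPKM in the control iPSCs and at no more than 0.0790 FPKM elsewhere. Its log2 fold change without a minimum level was -0.63 in the YAP-culture iPSCs (adjusted p = 0.0151 in limma) and -0.61 in the colonies (adjusted p = 0.000446), each against the control iPSCs. Hist2h2ac was at most 0.190 FPKM and Hist2h2aa2 at most 0.0744 FPKM. Hist1h2al, which M21 lists as a pseudogene, was at 0, 0.0847 and 0.0909 FPKM in the control iPSCs and at 0 elsewhere. Hist1h2aa, known from the male germ line, was at 0 in all 9 libraries.

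The H2B genes held the largest share of the histone sum. They summed to 19.1, 15 and 34.2 FPKM in the control iPSCs, to 7.63, 3.97 and 11.8 FPKM in the YAP-culture iPSCs, and to 10.4, 10.6 and 11 FPKM in the colonies. The control iPSCs lay above both other groups without overlap. Hist1h2bc (chromosome 13, 23684199 to 23692488) was the highest of the 69 genes over all libraries, with a mean of 4.02 FPKM. It was at 4.39, 4.34 and 4.79 FPKM in the control iPSCs, at 2.94, 2.02 and 3.08 FPKM in the YAP-culture iPSCs, and at 5.16, 4.62 and 4.86 FPKM in the colonies. The YAP-culture iPSCs were below all libraries of the other groups, which overlapped each other. Its log2 fold changes were 0.69 (adjusted p = 0.00173 in limma) in the colonies and -0.59 (adjusted p = 0.0445) in the control comparison of the YAP-culture iPSCs, and both are under the required size. Between the colonies and the control iPSCs the difference was 0.09 with a 95% interval from -0.20 to 0.39.

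Hist1h2bg (chromosome 13, 23571408 to 23571884) is another H2B gene. It was at 2.20, 1.37 and 5.61 FPKM in the control iPSCs, at 0.393, 0 and 0.805 FPKM in the YAP-culture iPSCs, and at 0.497, 0.447 and 0.725 FPKM in the colonies. Every control library was above every library of the other groups. Hist1h2bg fell by 1.25 on the log2 scale in the colonies against the control iPSCs (adjusted p = 0.0158 in limma), from 3.06 ± 2.25 to 0.557 ± 0.148 FPKM (SD, n = 3). The control iPSCs alone brought this gene over the minimum level, and in the fit without a minimum its adjusted p was 0.0288 in limma. Without control replicate 3 the change was -0.83 with an adjusted p of 0.0311 in limma, and the call was lost for its size. In the YAP-culture iPSCs against the control iPSCs the log2 fold change was -1.44 with an adjusted p of 0.0606 in limma, which did not pass. It did pass with the replicate number as a block (adjusted p = 0.0435 in limma).

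Hist2h2be (chromosome 3, 96221119 to 96223738), an H2B gene with a long transcript and a poly(A) signal at its end, followed Hist1h1c. It was at 0.215, 0.272 and 0.271 FPKM in the control iPSCs, 0.208, 0.544 and 0.240 FPKM in the YAP-culture iPSCs, and 0.942, 0.638 and 1.21 FPKM in the colonies. The colonies were above all 6 iPSC libraries. In the fit without a minimum level its log2 fold change in the colonies was 0.61 against the control iPSCs (adjusted p = 0.00601 in limma) and 0.53 against the YAP-culture iPSCs (adjusted p = 0.0119).

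Most other H2B genes were highest in the control iPSCs. Hist1h2bl was at 1.38, 1.34 and 2.45 FPKM there and at no more than 0.970 FPKM elsewhere. Hist1h2bk was at 1.80, 0.731 and 2.64 FPKM in the control iPSCs, but reached 1.37 FPKM in YAP-culture replicate 3. Hist1h2bp, Hist1h2bf and Hist1h2br reached 1.88, 2.80 and 1.25 FPKM in the control iPSCs and at most 0.582, 0.584 and 0.690 FPKM elsewhere, all without overlap of the control iPSCs with the others. Hist1h2bj overlapped, since YAP-culture replicate 3 was at 1.14 FPKM and control replicate 2 at 0.648 FPKM. Hist2h2bb was listed at 0 in control replicate 1 beside 1.91 and 3.22 FPKM in replicates 2 and 3. Hist1h2ba, the H2B of the testis, was at most 0.106 FPKM. Hist3h2ba was at 0.443, 0.351 and 0.631 FPKM in the control iPSCs, 0.269, 0 and 0.341 FPKM in the YAP-culture iPSCs, and 0.755, 0.274 and 0.594 FPKM in the colonies.

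The H3 genes were low, and highest in control replicate 3. Their sums were 4.06, 2.20 and 12.1 FPKM in the control iPSCs, 2.18, 1.33 and 1.62 FPKM in the YAP-culture iPSCs, and 0.767, 1.37 and 1.87 FPKM in the colonies. The control iPSCs lay above the others, with control replicate 2 at 2.20 FPKM just above YAP-culture replicate 1 at 2.18 FPKM. Hist1h3c, the highest H3 gene, was at 1.25, 0.328 and 2.68 FPKM in the control iPSCs, 0, 0.567 and 0.320 FPKM in the YAP-culture iPSCs, and 0, 0.283 and 1.05 FPKM in the colonies, and all groups overlapped. Hist2h3c1 was the 1 member with all YAP-culture libraries above all control libraries. It was at 1.57, 0.768 and 0.527 FPKM in the YAP-culture iPSCs, 0.153, 0.294 and 0.0840 FPKM in the control iPSCs, and 0.184, 0 and 0 FPKM in the colonies. The YAP-culture iPSCs were above all 6 other libraries, and in the fit without a minimum level the log2 fold change was -0.85 in the colonies against them (adjusted p = 0.00664 in limma) and 0.70 in them against the control iPSCs (adjusted p = 0.0978).

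The H4 genes summed to 8.93, 3.66 and 21 FPKM in the control iPSCs, 2.05, 1.77 and 3.87 FPKM in the YAP-culture iPSCs, and 2.66, 5.41 and 4.58 FPKM in the colonies. All groups overlapped. The highest H4 gene was Hist1h4i (chromosome 13, 22040636 to 22041362). It was at 2.01, 0.910 and 1.77 FPKM in the control iPSCs, 0.741, 1.47 and 1.08 FPKM in the YAP-culture iPSCs, and 2.04, 2.94 and 2.94 FPKM in the colonies. The colonies were above all iPSC libraries, narrowly so against control replicate 1. Its log2 fold change was 0.80 in the colonies against the YAP-culture iPSCs (adjusted p = 0.0107 in limma), under the required size, and 0.52 against the control iPSCs (adjusted p = 0.0620). Hist1h4d (chromosome 13, 23581598 to 23581990) was at 2.04, 0.473 and 3.81 FPKM in the control iPSCs, 0, 0 and 1.05 FPKM in the YAP-culture iPSCs, and 0, 0.828 and 1.22 FPKM in the colonies, with overlap between all groups. It passed no test, with log2 fold changes against the control iPSCs of -0.80 in the colonies, 95% interval from -1.92 to 0.31, and -1.13 in the YAP-culture iPSCs, 95% interval from -2.25 to -0.02. Hist1h4n was at 1.29, 0.823 and 3.54 FPKM in the control iPSCs and at no more than 0.594 FPKM elsewhere. Hist1h4h and Hist1h4k were above 0 in the 3 control libraries, up to 1.34 and 1.74 FPKM, and listed at 0 in the other 6. Hist4h4, the lone gene on chromosome 6, was at most 0.0844 FPKM.

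The first question was how the 2 kinds of colony from YAP cultures differed, colonies against YAP-culture iPSCs. A gene was called at an adjusted p below 0.05 over all 13808 tested genes with a log2 fold change of 1 or more in either direction. Of the 5 tested histone genes, 1 (Hist1h1c) was called higher and none lower, where 15.8% of all tested genes were called higher and 14.5% lower. At an unadjusted p below 0.05, 3 of the 5 differed, and the share of all tested genes at that level is not given here. Of the 59 histone genes above 0 in these groups, 7 (11.9%) had all colony libraries above all YAP-culture iPSC libraries, against 23.7% of all such rows of the table, and 1 (1.69%), Hist2h3c1, had all below, against 25.0%. The 7 were Hist1h1c, Hist1h2ao, Hist1h2bc, Hist1h2be, Hist1h3f, Hist1h4i and Hist2h2be. Their number was 14 of 59 without colony replicate 1 and 11 of 57 without YAP-culture replicate 3, where the shares of all rows were 27.6% and 30.9%. The number that lay below was 8 of 59 without YAP-culture replicate 2, where the share of all rows was 31.0%. Without the minimum level, 6 of 66 histone genes were higher and 1 lower at an adjusted p below 0.05 in limma, against 19.7% and 19.8% of all 26982 rows above 0.

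Against the control iPSCs, the colonies had lower values of some histone genes and higher values of a few. Of the 5 tested genes 1 (Hist1h2bg) was called lower and none higher, where 17.0% of all tested genes were called lower and 14.9% higher, and 3 of the 5 had an unadjusted p below 0.05. Since Hist1h2bg reached the minimum through the control iPSCs, nothing is read from this count. Of 66 histone genes above 0 in these groups, 26 (39.4%) had all colony libraries below all control libraries, against 30.7% of all such rows. They were 4 of 6 H1, 2 of 20 H2A, 10 of 18 H2B, 3 of 12 H3 and 7 of 13 H4 genes. The count was 40 of 65 without control replicate 2 and 26 of 66 without control replicate 3, where the shares of all rows were 34.0% and 35.3%. Hist1h1c, Hist1h4i, Hist2h2be and Hist3h2a (6.06%) had all colony libraries above, against 25.6% of all rows, and 7 genes did without control replicate 3, against 27.2%. Without the minimum level, 17 of 66 were lower and 3 higher (Hist1h1c, Hist2h2be and Hist3h2a) at an adjusted p below 0.05 in limma, against 21.3% and 19.6% of all rows. Without control replicate 3 they were 14 and 2, against 19.6% and 16.6%. Over the 66 genes 13 log2 fold changes were positive and 53 negative, with a median of -0.37, or -0.20 without control replicate 3, beside -0.01 over all rows in both cases.

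The comparison of the 2 iPSC groups asked whether iPSCs from YAP cultures resembled those from control cultures. None of the 5 tested histone genes was called, where 0.507% of all tested genes were called higher and 0.884% lower in limma, and 3 of the 5 had an unadjusted p below 0.05. Since Hist1h2bg and Hist1h4d reached the minimum through the control iPSCs, nothing is read from these counts. Without any test, however, 30 of the 65 histone genes above 0 in these groups (46.2%) had all YAP-culture libraries below all control libraries, against 10.3% of all such rows. The 30 were 4 of 6 H1, 5 of 20 H2A, 9 of 18 H2B, 6 of 12 H3 and 6 of 13 H4 genes. Without control replicate 3 they were 31 of 65, where the share of all rows was 15.7%, and 48 of 64 without control replicate 2, where it was 15.1%. Rn18s-rs5 also had all YAP-culture libraries, at 440 to 1185 FPKM, below all control libraries, at 1263 to 17634 FPKM. Its colony libraries, at 539 to 913 FPKM, were below the control libraries too. The small nuclear RNA sums overlapped, at 533 to 1249 FPKM in the YAP-culture iPSCs and 1007 to 18496 FPKM in the control iPSCs. In the colonies they were at 178 to 1680 FPKM. All ribosomal RNA rows together also overlapped, at 1267 FPKM in YAP-culture replicate 1 and 1263 FPKM in control replicate 1. Hist2h3c1 (1.54%) was the 1 histone gene with all YAP-culture libraries above all control libraries, against 12.2%. Without the minimum level, 3 of 66 were lower and none higher at an adjusted p below 0.05 in limma, against 0.845% and 1.00% of all rows. The 3 were Hist1h2ab, Hist1h4m and Hist1h3i, and without control replicate 3 only Hist1h2ab was, against 0.398% of all rows. Of the 66 log2 fold changes 3 were positive and 62 negative, with a median of -0.43, or -0.26 without control replicate 3, beside 0 over all rows. The 3 comparisons share their groups, so their counts are not independent of each other.

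In the colonies, the genes with a poly(A) signal at an end were together at control levels, and the others were together below them. This grouping was made after the values were seen, and it is given as a description. It rests on annotated and deposited ends, and genes whose annotated transcript stops short of a signal may stand among those without one. The 18 genes with such a signal summed to 15.6, 11.5 and 19.1 FPKM in the control iPSCs, 10.7, 6.69 and 10.6 FPKM in the YAP-culture iPSCs, and 15.9, 15.7 and 18.7 FPKM in the colonies. The colonies lay within the range of the control iPSCs and above that of the YAP-culture iPSCs. The 49 without one summed to 27.9, 16.7 and 65.4 FPKM, then 5.13, 1.75 and 11.4 FPKM, then 4.79, 8.71 and 10.6 FPKM in the same order, with all control libraries above all others and the other groups overlapping. The mean of the colonies was above that of the control iPSCs for 8 of the 18 genes and for 5 of the 49, and for 8 and 9 without control replicate 3. All 4 genes with every colony library above every control library were among the 18, and 25.6% of all rows of the table lay above in this way. Of the genes with every colony library below, 6 were among the 18 and 19 among the 49, and 30.7% of all rows of the table lay below in this way. Hist1h2bc and Hist1h1c make up much of the first sum, and without them the other 16 genes summed to between 5.51 and 12.3 FPKM in the control iPSCs and between 6.98 and 8.57 FPKM in the colonies.

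**Figure D4:**
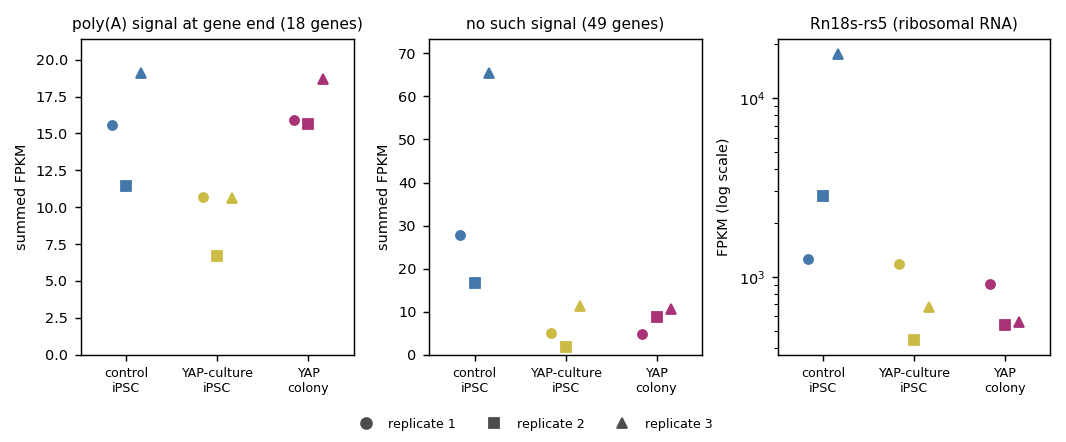
Left and middle, summed FPKM (linear from 0) of the 18 histone genes with a poly(A) signal at a gene end and of the 49 without, by group, with 1 point per library. Right, FPKM of the ribosomal RNA row Rn18s-rs5 on a log scale, where control replicate 3 at 17634 FPKM lies above the other 8 libraries, as it does for the 49 genes in the middle panel.

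Of 14 genes for histone transcription and 3′ end processing, none was called higher and 2 were called lower in the colonies against each iPSC group, Zfp473 and Coil. Of all tested genes, 14.5% were called lower against the YAP-culture iPSCs and 17.0% against the control iPSCs. Zfp473 encodes a zinc finger protein whose human counterpart binds the U7 ribonucleoprotein. It was listed at 0 in all 3 colony libraries, beside 7.10 ± 1.20 FPKM in the control iPSCs and 8.77 ± 0.89 FPKM in the YAP-culture iPSCs (SD, n = 3; adjusted p = 2.07e-07 and 1.35e-07 in limma). Coil, which encodes coilin, the scaffold of Cajal bodies, fell from 20.8 ± 2.24 FPKM in the control iPSCs and 19.3 ± 1.08 FPKM in the YAP-culture iPSCs to 5.65 ± 0.0933 FPKM in the colonies (log2 fold changes -1.71 and -1.61, adjusted p = 1.16e-06 and 1.73e-06 in limma). Slbp, which encodes the stem-loop binding protein, was at 38.7 ± 1.77, 44.0 ± 4.43 and 33.6 ± 4.32 FPKM in control iPSCs, YAP-culture iPSCs and colonies and was not called, nor was Npat, the co-activator of histone genes that cyclin E-CDK2 activates, at 8.19 ± 0.793, 10.1 ± 1.41 and 7.55 ± 0.473 FPKM. Of 8 histone mRNA decay genes, 1 was called lower in the colonies in both comparisons, beside the same shares of all tested genes. It was Exosc10, a nuclear exosome nuclease, at 12.4 ± 1.43 FPKM in the colonies against 28.3 ± 1.25 and 28.2 ± 6.22 FPKM in control and YAP-culture iPSCs.

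The replication-independent variants, whose messages are polyadenylated and made through the cycle, reached far higher levels in FPKM than the cluster genes. Of 11 listed variants, 10 were tested. In the colonies against the YAP-culture iPSCs, 4 were called higher (H1f0, H3f3a, H2afj and H2afy2) and 1 lower (H2afz). Of all tested genes, 15.8% were called higher and 14.5% lower there. Against the control iPSCs, 3 were called higher (H3f3a, H1f0 and H2afj) and 1 lower (H2afx), beside 14.9% and 17.0% of all tested genes. H1f0, the linker histone of cells that leave the cycle, rose to 47.4 ± 5.32 FPKM in the colonies from 13.2 ± 2.33 FPKM in the control iPSCs and 11 ± 1.57 FPKM in the YAP-culture iPSCs (log2 fold changes 1.77 and 2.01, adjusted p = 1.25e-05 and 5.94e-06 in limma). H3f3a, which encodes H3.3, rose to 404 ± 10.1 FPKM from 117 ± 7.28 and 139 ± 19.0 FPKM in the same order. H2afz, which encodes H2A.Z, fell from 316 ± 63.2 FPKM in the YAP-culture iPSCs to 150 ± 16.8 FPKM (log2 fold change -1.05, adjusted p = 0.000415 in limma). H2afx, a variant whose message can end at either a stem-loop or a tail, fell from 76.3 ± 4.63 FPKM in the control iPSCs to 37.8 ± 8.72 FPKM (log2 fold change -1.02, adjusted p = 0.00558 in limma). H3f3a and H2afz have processed copies in the genome, among which reads may have been shared.

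Of 17 chaperone genes, none was called higher and 2 were called lower in the colonies against each iPSC group. Of all tested genes, 14.5% were called lower against the YAP-culture iPSCs and 17.0% against the control iPSCs. Nasp, a chaperone of H1, H3 and H4, fell from 283 ± 24.8 FPKM in the control iPSCs and 345 ± 79.8 FPKM in the YAP-culture iPSCs to 130 ± 13.3 FPKM, and Mms22l, which works with H3-H4 at broken forks, from 28.1 ± 2.32 and 29.7 ± 0.670 FPKM to 11.3 ± 0.954 FPKM. Of 21 tested S phase genes, Rrm1 was called higher and Cdc6 lower in the colonies against the YAP-culture iPSCs. Against the control iPSCs, 2 were called higher (Ccne2 and Rrm1) and 4 lower (Cdc6, Mcm5, Mcm2 and Cdc45). The shares of all tested genes called higher were 15.8% and 14.9% in the same order, and those called lower are given above. Cdc6, a loader of the replicative helicase, was at 8.96 ± 1.49 FPKM in the colonies, 19.0 ± 0.878 FPKM in the YAP-culture iPSCs and 28.0 ± 2.79 FPKM in the control iPSCs. The call of Ccne2, which encodes cyclin E2, rests on control replicate 2, which was listed at 0, and was lost without it (log2 fold change 0.83, adjusted p = 0.00511 in limma). The median log2 fold change of the 21 was -0.46 against the YAP-culture iPSCs and -0.56 against the control iPSCs, beside 0.02 and -0.07 over all tested genes. No gene of the 5 lists was called between the iPSC groups in limma, where 0.507% of all tested genes were called higher and 0.884% lower.

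**Figure D5:**
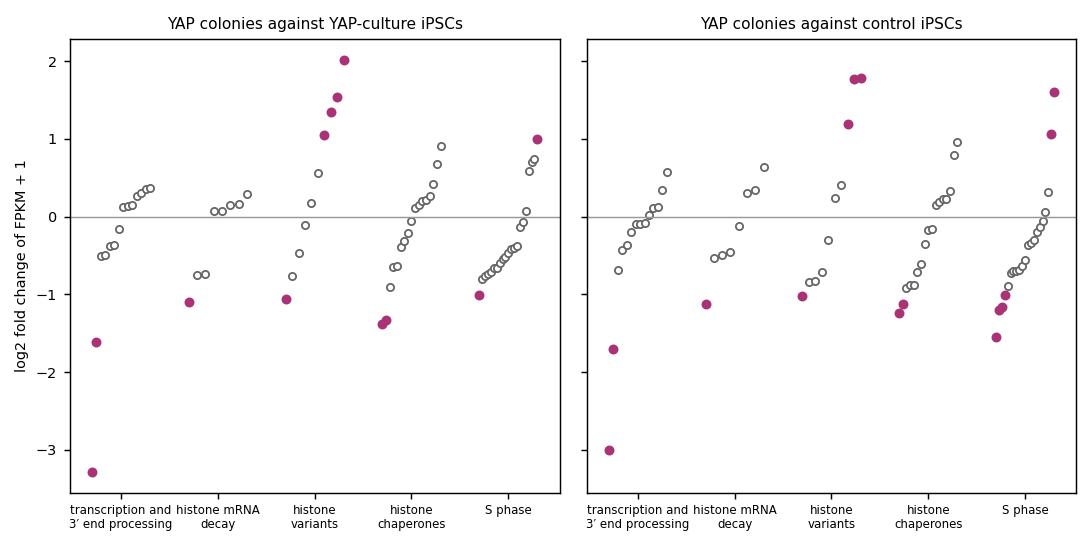
Log2 fold change on the log2(FPKM + 1) scale (vertical axis) of each tested gene in 5 lists (horizontal axis), in the colonies against the YAP-culture iPSCs (left) and the control iPSCs (right). Filled points were called, and open points were not. The lowest point is Zfp473, listed at 0 in all colonies, and the highest filled points among the variants are H1f0 and H3f3a.

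Markers of other cells moved with the groups. The 6 naive pluripotency genes summed to 4460 to 6341 FPKM in the iPSC libraries and 119 to 161 FPKM in the colonies, as the labels of pluripotent and non-pluripotent cells have it. Dppa5a made up most of the iPSC sum, at 3445 to 5183 FPKM there and 3.08 to 5.38 FPKM in the colonies. Nanog made up most of the colony sum, at 114 to 158 FPKM there and 292 to 400 FPKM in the iPSCs. Esrrb, Tdgf1, Zfp42 and Dppa3 were at no more than 0.765 FPKM in any colony library. The 10 fibroblast markers summed to 4.83 to 9.43 FPKM in the iPSCs and 38.5 to 45.8 FPKM in the colonies. The 4 that were tested (Thy1, Dcn, Col1a1 and Col3a1) were called higher in the colonies in both comparisons. Dcn, Col1a1 and Col3a1 reached the minimum level through the colonies alone, so nothing is read from this count. Thy1 and Dcn made up most of the fibroblast sum, at 16.9 to 28.6 and 6.85 to 11.1 FPKM in the colonies. Pdgfrb went the other way, at 0.281 to 0.377 FPKM in the colonies and 0.731 to 1.04 FPKM in the iPSCs, and Twist2 was listed at 0 in all colonies and at most 0.132 FPKM in the iPSCs. The 3 germ cell markers summed to 25.8 to 44.1 FPKM in the iPSCs and 0.0910 to 0.177 FPKM in the colonies. The 5 leukocyte markers summed to 26.2 to 69.3 FPKM in the iPSCs and 116 to 140 FPKM in the colonies. That rise was in Laptm5, at 14.1 to 47.4 FPKM in the iPSCs and 114 to 135 FPKM in the colonies, while Cd68 fell from 8.55 to 19.4 FPKM to 2.12 to 3.17 FPKM. Ptprc, the marker that defines leukocytes, was at no more than 0.0989 FPKM in any library. The sum of the 4 endothelial markers, 32.8 to 44.3 FPKM over all libraries, hides opposite changes. Tek, a receptor of endothelial cells, rose from 2.51 to 3.83 FPKM in the iPSCs to 41.6 to 44.1 FPKM in the colonies, and Pecam1, an adhesion molecule also made by mouse pluripotent cells, fell from 29.0 to 38.3 FPKM to 0.152 to 0.193 FPKM. Cdh5, which defines endothelial cells, was at no more than 0.0516 FPKM in any library. The part of feeder or other cells in the histone values was not tested.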

How the data were processed

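Poly(A)-selected RNA of 9 libraries was measured. Trizol extraction and a stranded mRNA kit are recorded per the labels' protocols. TopHat, Cufflinks and mm10 stand in the submitters' processing notes, while versions, settings and the use of strand in counting are not given in the sources used here. What the authors deposited was FPKM, so the depth and its counting error are unknown. Column headings were matched to the labels. The 69 members and all lists were chosen with earlier results of these data known.

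limma 3.58.1 (R 4.3.3) was fitted to log2(FPKM + 1) of the 13808 rows whose mean reached 1 FPKM, as 3 group means over 9 libraries with a trended prior on the variance and without a block. A call needed a log2 fold change of 1 or more in either direction and, two-sided and adjusted by Benjamini-Hochberg over all these rows, a p below 0.05. Changes on this scale understate those of low genes. The fit was tested on simulated data. Zero residual variances, in a few rows, were offset by limma. Named are the 16 members with the highest means, called members, the highest of each class and cluster, germ line members and, per list, the 2 largest called changes each way. Other members and list genes are named after their values were seen. Same-numbered libraries of different groups showed little shared deviation (r from -0.14 to 0.19, above 0.1 in 2 of 9 pairs), and the numbers were not used as pairs. This cannot exclude a shared origin, which the labels do not give. Stem-loops and poly(A) signals were searched in GENCODE M21 transcripts and deposited gene ends, and motifs in RefSeq promoter windows. The gene Cdt1 was not analysed here, and Sympk was used for a misspelt name. Alternatives were pseudocounts of 0.1 and 5, no minimum and a minimum of 5 FPKM, median-ratio and quantile scaling, the compared groups alone, a replicate block, each library left out, and, added after seeing the data, protein-coding rows rescaled, no minimum without control replicate 3, and sums without Hist1h2bc and Hist1h1c. Figures were drawn with matplotlib 3.10.9.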

Additional observations from a re-analysis of the deposited data

How the results depend on the processing

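The log2 ratios of the summed histone FPKM kept their sign under every scaling and library left out that was run, from 0.37 to 1.02 for colonies against YAP-culture iPSCs, -1.41 to -0.56 for colonies against control iPSCs and -2.12 to -1.22 for the iPSC groups when 1 library was left out. Counts of called members were small and moved. The 1 member called higher in colonies against YAP-culture iPSCs became 2 with a pseudocount of 0.1, 0 with a pseudocount of 5 or a minimum of 5 FPKM, and 0 to 1 with a library left out. The 1 member called lower in colonies against control iPSCs became 0 with either pseudocount, with a minimum of 5 FPKM or with quantile scaling, 5 with no minimum, and 0 to 2 with a library left out. None was called lower in YAP-culture against control iPSCs, and 1, Hist1h2bg, was with quantile scaling, with protein-coding rows rescaled, with the replicate block, and 0 to 1 with a library left out. The replicate numbers are not known to pair these samples, and the block changed no other count of called members. With 1 library left out, members with groups not overlapping numbered 7 to 14 higher and 1 to 8 lower in colonies against YAP-culture iPSCs (25.4% to 30.9% and 26.5% to 31.0% of all rows), 4 to 7 and 26 to 40 in colonies against control iPSCs (27.2% to 29.3% and 32.9% to 35.3%), and 1 to 2 and 31 to 48 between the iPSC groups (13.6% to 19.6% and 12.2% to 25.6%). The sign of Hist1h2bg in colonies against YAP-culture iPSCs turned without YAP-culture replicate 2 (from -0.031 there to 0.39 without YAP-culture replicate 3), and that of Hist1h2bc in colonies against control iPSCs with quantile scaling (-0.0082), neither of them called. Rescaling to protein-coding rows moved the median of all genes from -0.07 to 0.09 in colonies against control iPSCs. The causes were not tested. The unknown depth limits what can be said of the 64 members under the minimum.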
